A study of Mus musculus with 12 samples.

Results

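The 10 genes described here belong to the integrated stress response of the mouse retina: the transcription factors Atf4, Atf5 and Ddit3, the feedback and effector genes Trib3, Chac1 and Sesn2, the amino acid synthesis genes Asns, Psat1 and Phgdh, and the secreted cytokine gene Gdf15. They were chosen by symbol, and all 10 were found among the 25124 gene symbols that both expression tables list. The study sequenced poly(A) RNA from whole retinas of wild-type (WT) C57BL/6J mice in 12 libraries, 6 groups of 2. In animals aged 3 or 18 months, 1 eye was held at an intraocular pressure (IOP) of 30 mmHg for 1 h (3mo IOP, 18mo IOP), the untreated fellow eye was the control (3mo control, 18mo control), and retinas were taken on day 2. In a separate table, animals aged 3 months at the start received the same elevation every other week, 4 times, and both eyes were sampled 2 days after the last (4xIOP, 4xIOP control). The comparisons ask how these genes differ between young and old retinas, and how they respond to pressure at each age and after repetition. The control eye belongs to an animal whose other eye was pressurised, and the labels do not say which libraries come from the same animal. The study describes the replicates as biological, the labels do not say whether they are separate animals, and p-values measure the spread between these libraries.

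In the integrated stress response, a small family of kinases senses amino acid shortage, unfolded protein, haem shortage or double-stranded RNA and phosphorylates the translation factor eIF2. General translation then slows, while the mRNA of Atf4 is translated more because of its upstream reading frames. ATF4 protein activates genes of amino acid supply and redox balance through the C/EBP-ATF response element (CARE), induces DDIT3 (also called CHOP), and is restrained by TRIB3 and by the phosphatase subunit PPP1R15A. GDF15 is a cytokine released by stressed cells, and its receptor GFRAL is known from the hindbrain. Because ATF4 is controlled largely at translation, an mRNA level of Atf4 does not measure its activity.

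The CARE motif was searched as TGATGNAA on the gene's strand and as TTNCATCA, its form on the opposite strand, in RefSeq promoter windows (GRCm38.p6, 250 bases before to 50 after the transcript start). It was found in 3 of the 10 genes, Asns, Chac1 and Trib3, once in each, in 1304 of all 32851 windows of this length (3.97%) and in 297 of 13601 windows of tested genes (2.18%). Asns held it from 23 bases before its start on the gene's strand, Chac1 from 193 bases before on the opposite strand, and Trib3 from base 15 after the start on the opposite strand. The stretches with a match are shown with the motif in capitals, followed by those next to the starts of Sesn2, Atf5 and Gdf15, genes that the results below turn on. In those 3, no match was found in the window, which says only that these letters are not there.
Asns, chr6:7693210-7693289, minus strand: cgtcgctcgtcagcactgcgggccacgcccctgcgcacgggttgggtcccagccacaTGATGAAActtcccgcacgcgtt
Chac1, chr2:119351012-119351091, plus strand: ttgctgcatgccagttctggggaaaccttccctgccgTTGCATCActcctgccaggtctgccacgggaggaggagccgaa
Trib3, chr2:152344028-152344057, minus strand: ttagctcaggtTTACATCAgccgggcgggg
Sesn2, chr4:132510457-132510536, minus strand: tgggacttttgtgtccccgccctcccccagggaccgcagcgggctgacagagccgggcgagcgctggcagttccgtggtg
Atf5, chr7:44816659-44816738, minus strand: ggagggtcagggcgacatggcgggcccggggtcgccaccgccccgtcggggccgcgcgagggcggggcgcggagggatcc
Gdf15, chr8:70632457-70632536, minus strand: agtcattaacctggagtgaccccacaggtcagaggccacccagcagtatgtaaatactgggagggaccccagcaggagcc
The matches are a description of sequence, not a measurement of binding.

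Values are FPKM, fragments per kilobase of transcript scaled to the mapped reads of the library, summed over the exons of 1 RefSeq transcript per gene. Libraries held 39766244 to 59455053 mapped reads, recovered from the steps between FPKM values, and the 10 genes' own reads ranged from 4 for Gdf15 in 3mo control 1 and 4xIOP control 1 to 18514 for Atf4 in 3mo IOP 1. A gene was called when its adjusted p from limma was 0.05 or less and it differed by 1 or more, in either direction, on the log2(FPKM + 0.5) scale, which understates changes of low genes. The ratio of short to long transcripts set the libraries of the single-IOP table apart by age, at 3.03 to 9.12 at 3 months and 1.52 to 1.89 at 18 months, and was 1.97 to 2.91 in the repeated-IOP table. The labelled tissue was borne out by the rod markers, which summed to 4444 FPKM or more in every library with all 6 detected.

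By level per transcript length, Atf4 stood first and Ddit3 second in each of the 6 groups. Atf4 averaged 176 ± 11.9 FPKM (SD, n = 2) in 3mo control and Ddit3 43.8 ± 11.9 FPKM, and these did not overlap. Asns (22.01 ± 8.21) and Psat1 (15.3 ± 5.74) came next in 3mo control and overlapped each other. Atf5 (5.51 ± 0.0156) followed, and Trib3, Sesn2, Phgdh and Chac1, between 1.14 and 1.76 FPKM, did not differ from their neighbours in this order beyond their spread. Gdf15 was the lowest, at 0.203 ± 0.187 FPKM. The order changed with age in the middle: Asns moved from the 3rd to the 5th place behind Psat1 and Atf5 in 18mo control, and Gdf15 stood 8th in 18mo IOP, ahead of Phgdh and Chac1.

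**Figure D1:**
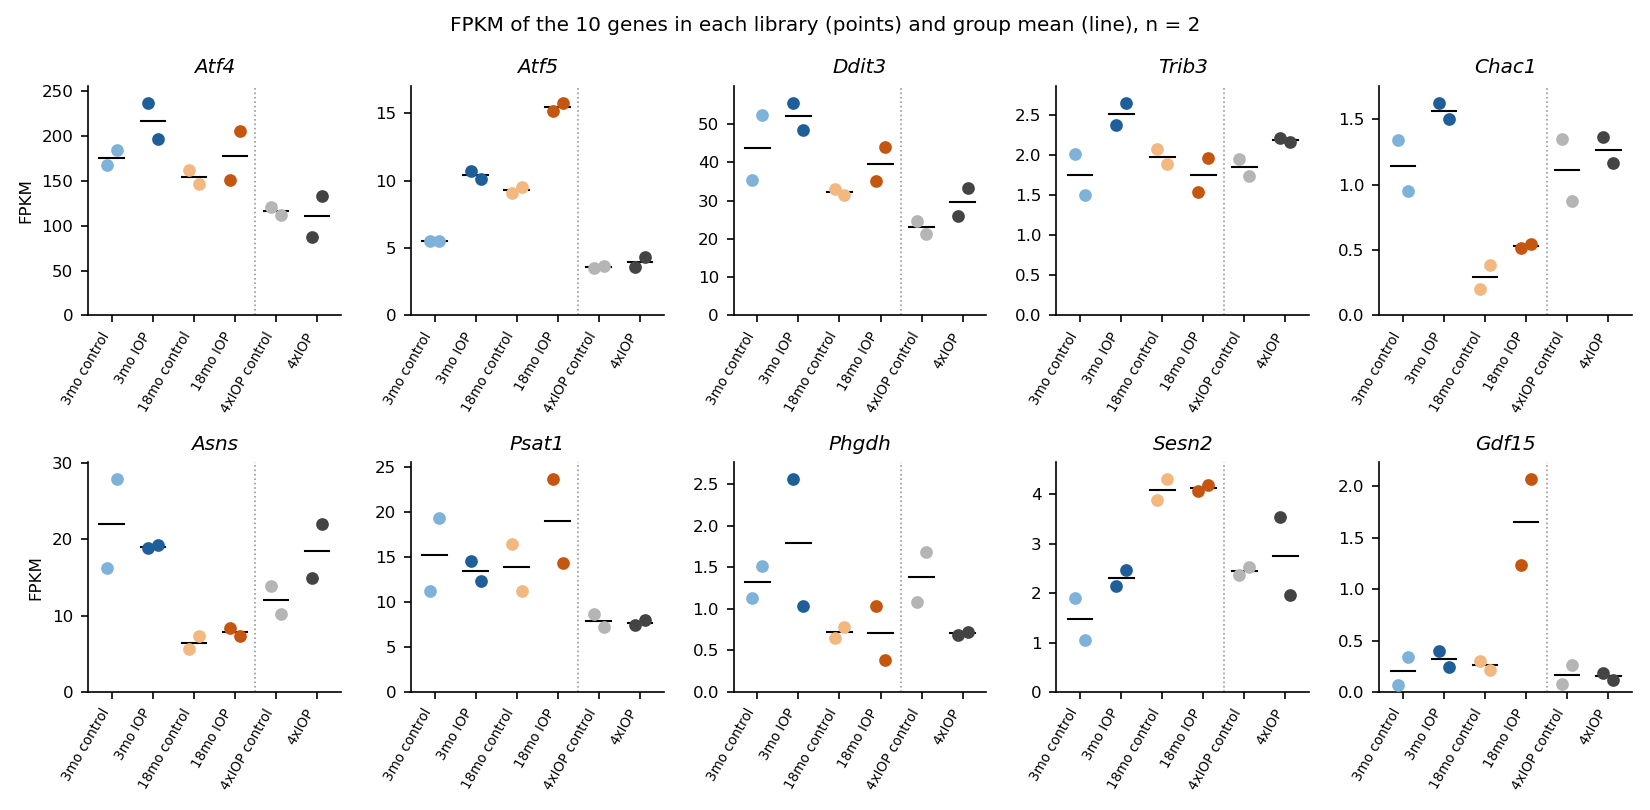
FPKM (vertical axis, from 0) of each of the 10 genes in the 12 libraries, by group; points are libraries, lines are means of 2, and the dotted line divides the 2 tables, which were normalised separately. Gdf15 exceeds 1 FPKM only in the 18mo IOP libraries (1.23 and 2.07), and Asns lies below 9 FPKM in all 4 libraries from 18-month-old animals and above 16 in all 4 of the single-IOP table from 3-month-old animals.

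With age, in untreated eyes, Asns and Chac1 were lower and Sesn2 was higher at 18 months, and the other 7 genes were not called. The count was 1 of 10 higher against a background of 11.6% of the 13731 genes tested, and 2 of 10 lower against 11.6%. By adjusted p alone Atf5 joined the higher genes, giving 2 higher and 2 lower against 26.7% and 19.2%. The groups did not overlap for 2 genes that were higher and 5 that were lower, against 45.7% and 32.8% of all tested genes. The share of members called was thus near the share of all genes. Their median log2 difference was −0.15, where that of all genes was 0.16. Fold changes followed transcript length: the median of all genes ran from −0.88 below 1000 bases to 0.55 at 6000 bases or more, and the 10 transcripts span 865 to 2643 bases. With this trend removed the median of the 10 genes was 0.12 and that of all genes 0.038. Scaling by median-of-ratios size factors changed the split of all called genes from 1595 higher and 1590 lower to 1056 and 1959.

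Markers of cell types also moved with age. The 7 retinal ganglion cell markers ranged in sum from 317 to 620 FPKM at 3 months and from 34.7 to 79.3 at 18 months in control eyes. The 6 retinal pigment epithelium markers ranged from 29.0 to 43.2 and from 0.558 to 3.44, and 1 of them was at 0 in an 18mo control library. The 6 Müller glia markers summed to 491 to 598 at 3 months and 1072 to 1365 at 18 months, and the 5 endothelial markers to 7.17 to 9.83 and 49.7 to 50.2. The 6 microglia and leukocyte markers summed to 5.36 to 6.93 and 15.2 to 17.8, the 6 rod markers to 20394 to 23314 and 15063 to 16864, and the 6 lens markers to 7.36 to 10.4 and 1.68 to 2.58. Their part in the differences with age was not tested. In whole retina, fewer cells of a type and less RNA per cell cannot be told apart.

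**Figure D2:**
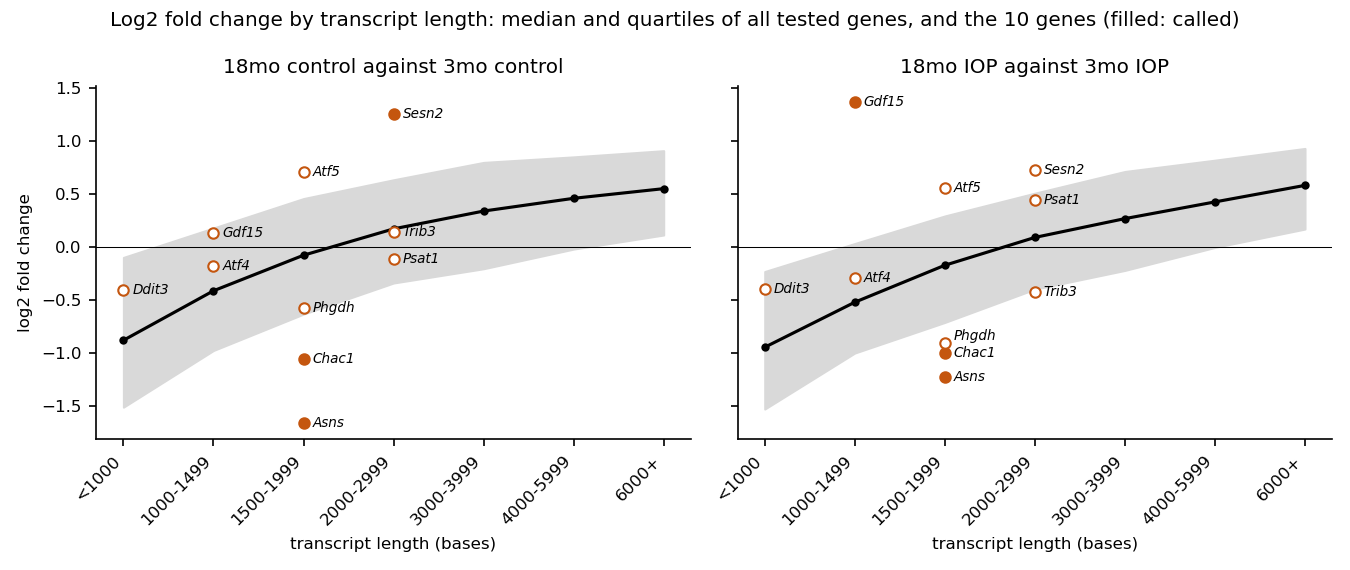
Log2 fold change (vertical axis) of 18 against 3 months by transcript length (horizontal axis, bins in bases) in control eyes and IOP eyes; the line is the median and the grey band the quartiles of all tested genes, and circles are the 10 genes, filled where called. Asns (−1.65 and −1.23), Chac1 (−1.05 and −1.002) and Sesn2 (1.25 and 0.72) lie outside the quartile band of their bin in both panels.

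Asns encodes asparagine synthetase, which makes asparagine from aspartate and glutamine, and is a classic ATF4 target (NM_012055, chr6:7675165-7693209, minus strand, 12 exons). It measured 16.2 and 27.8 FPKM in 3mo control and 5.57 and 7.37 in 18mo control. The 2 ages did not overlap. The fall was 1.65 on the log2 scale (SE 0.26, adjusted p = 0.00564), to 0.294 of the 3-month mean. In IOP eyes Asns stood at 18.8 and 19.3 FPKM at 3 months and at 8.38 and 7.36 at 18 months, again without overlap, and fell by 1.23 (SE 0.26, adjusted p = 0.0109). The call in control eyes remained without each of the 4 libraries in turn (adjusted p 0.000429 to 0.0447). In IOP eyes it was lost without 3mo IOP 1 (−1.24, adjusted p = 0.0685) and without 3mo IOP 2 (−1.21, adjusted p = 0.067).

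Chac1 encodes a γ-glutamyl cyclotransferase that degrades glutathione (NM_026929, chr2:119351242-119354327, plus strand, 3 exons). It measured 1.34 and 0.95 FPKM in 3mo control, on 87 and 71 reads, and 0.204 and 0.382 in 18mo control, on 14 and 28 reads. Every 18-month value lay below every 3-month value. Chac1 was lower in control eyes (−1.05, SE 0.23, adjusted p = 0.0105) and in IOP eyes (−1.002, SE 0.23, adjusted p = 0.0136), where it measured 1.62 and 1.503 at 3 months and 0.512 and 0.548 at 18 months. It passed the filter on low values through the 3-month libraries, since its mean over the 18-month libraries was 0.412 FPKM. The fold change sat at the threshold: in control eyes the call was lost without 3mo control 1 (−0.88, adjusted p = 0.03), 18mo control 1 (−0.89, adjusted p = 0.0731) or 18mo control 2 (−1.21, adjusted p = 0.0501), with the length trend removed (−0.80, adjusted p = 0.0366), and with a pseudocount of 1 (−0.73, adjusted p = 0.0114). In IOP eyes it was lost without 3mo IOP 1 (−0.96, adjusted p = 0.0818), 3mo IOP 2 (−1.04, adjusted p = 0.0676) or 18mo IOP 1 (−0.98, adjusted p = 0.042), with a pseudocount of 1 (−0.74, adjusted p = 0.0119), with the length trend removed (−0.67, adjusted p = 0.0707) and with length and GC trends removed (−0.96, adjusted p = 0.0209).

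Sesn2 encodes a sestrin, a leucine sensor that restrains mTORC1 and answers to ATF4 and to p53 (NM_144907, chr4:132492807-132510456, minus strand, 10 exons). It measured 1.90 and 1.05 FPKM in 3mo control and 3.88 and 4.30 in 18mo control. These did not overlap, and Sesn2 was higher by 1.25 (SE 0.23, adjusted p = 0.00732), 2.77 times the 3-month mean. In IOP eyes it stood at 2.15 and 2.46 FPKM at 3 months and 4.06 and 4.19 at 18 months, a difference of 0.72 (SE 0.23, adjusted p = 0.0375) that was below the fold threshold. The call in control eyes was lost without 3mo control 2 (0.93, adjusted p = 0.0137) or 18mo control 2 (1.18, adjusted p = 0.0551), and when trends with length and GC content were both removed (0.57, adjusted p = 0.0437). An annotated non-coding gene, Gm12981, overlaps Sesn2 on the same strand, and their reads may not be told apart.

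Atf5 encodes a relative of ATF4 whose translation is controlled in a similar way and which is linked to the mitochondrial stress response (NR_033136 in the single-IOP table, chr7:44812256-44816658, minus strand). It had the smallest SE of the 10 genes in the fit of the single-IOP table, 0.15, though not the closest replicates in every group. It measured 5.50 and 5.52 FPKM for 3mo control, 10.7 and 10.1 for 3mo IOP, 9.06 and 9.53 in 18mo control, and 15.2 and 15.8 in 18mo IOP. No IOP value overlapped the controls of its age, and no 18-month value overlapped the same treatment at 3 months. The log2 difference was 0.86 (SE 0.15, adjusted p = 0.0576) for IOP at 3 months, 0.71 (SE 0.15, adjusted p = 0.127) for IOP at 18 months, 0.70 (SE 0.15, adjusted p = 0.00981) for age in controls and 0.55 (SE 0.15, adjusted p = 0.0225) for age in IOP eyes. The age differences passed by adjusted p alone, and the IOP differences did not pass. Without any single library the adjusted p for age ranged from 0.00449 to 0.0794 in controls and from 0.068 to 0.127 in IOP eyes, so in IOP eyes it was not passed without each of the 4 libraries. The interaction, the difference of the 2 IOP responses, was −0.15 (95% confidence interval −0.64 to 0.33). When trends with length and GC content were removed, the age difference in controls was 0.28 (adjusted p = 0.106).

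After repeated IOP, Atf5 measured 3.62 and 4.35 FPKM against 3.49 and 3.69 in 4xIOP control. These overlapped (0.13, SE 0.20, 95% confidence interval −0.29 to 0.55, adjusted p = 0.908). The single and repeated tables report Atf5 through different transcripts, so its levels are not set side by side between them.

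Atf4 (NM_001287180, chr15:80255184-80257545, plus strand), the central factor of the response, was the most abundant member and was called in no comparison. It measured 167 and 184 FPKM for 3mo control, 237 and 196 for 3mo IOP, 162 and 147 for 18mo control and 150.4 and 206 for 18mo IOP. In the repeated-IOP table it measured 121 and 111 FPKM for 4xIOP control and 87.2 and 134 for 4xIOP. The 3mo IOP values lay above their controls (0.30, 95% confidence interval −0.24 to 0.83), and the other IOP groups overlapped theirs. The intervals were −0.35 to 0.72 for IOP at 18 months and −0.85 to 0.64 for repeated IOP. With age the difference was −0.18 (95% confidence interval −0.72 to 0.35) in controls, and its sign turned under quantile normalization (0.41) and with the length trend removed (0.17).

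Ddit3 encodes CHOP, a factor of the C/EBP family linked to cell death in prolonged endoplasmic reticulum stress (NM_007837, chr10:127290793-127296288, plus strand). It measured 35.4 and 52.2 FPKM for 3mo control, 55.5 and 48.5 for 3mo IOP, 33.02 and 31.5 in 18mo control and 35.2 and 43.9 in 18mo IOP. Only at 18 months did the IOP eyes not overlap their controls. The differences were 0.27 (95% confidence interval −0.25 to 0.79) and 0.28 (95% confidence interval −0.24 to 0.80), with adjusted p of 0.931 and 0.936. After repeated IOP it measured 25.9 and 33.2 FPKM against 24.7 and 21.2, without overlap (0.35, 95% confidence interval −0.22 to 0.92, adjusted p = 0.701). At 865 bases it is the shortest of the 10 transcripts, and its age difference in controls, −0.41 (SE 0.23, adjusted p = 0.165), became 0.40 (adjusted p = 0.0505) with the length trend removed. In IOP eyes the age difference of −0.40 (adjusted p = 0.183) became 0.49 (adjusted p = 0.0297). The direction of Ddit3 with age therefore rests on the treatment of transcript length. Mars lies on the opposite strand at this locus, and libraries and counting were strand-specific.

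Trib3, the pseudokinase that restrains ATF4 and CHOP, was called in no comparison (NM_175093, chr2:152337425-152344060, minus strand). It measured 2.01 and 1.504 FPKM for 3mo control, 2.38 and 2.65 for 3mo IOP, 2.07 and 1.89 in 18mo control and 1.54 and 1.97 in 18mo IOP. The 3mo IOP values lay above their controls and the 18mo IOP values overlapped theirs. The difference was 0.42 (SE 0.21, adjusted p = 0.672) at 3 months and −0.15 (SE 0.21, adjusted p = 0.999) at 18 months. The interaction was −0.57 (95% confidence interval −1.24 to 0.10, adjusted p = 1). Repeated IOP gave 2.22 and 2.16 FPKM against 1.95 and 1.74, without overlap (0.20, adjusted p = 0.824).

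Psat1 and Phgdh encode the aminotransferase and the dehydrogenase of serine synthesis. Psat1 (NM_177420, chr19:15905123-15925059, minus strand) ranged from 7.26 FPKM in 4xIOP control 2 to 23.7 in 18mo IOP 1. In 3mo control its replicates measured 11.2 and 19.3 FPKM, and the groups overlapped in every comparison. Its difference was 0.44 for age in IOP eyes (95% confidence interval −0.31 to 1.20) and its interaction 0.55 (95% confidence interval −0.52 to 1.62). Phgdh (NM_016966, chr3:98313171-98339969, minus strand) measured 1.13 and 1.51 FPKM in 3mo control and 0.651 and 0.782 in 18mo control, without overlap (−0.57, SE 0.38, adjusted p = 0.236). In IOP eyes it measured 2.56 and 1.03 at 3 months and 1.03 and 0.38 at 18 months, without overlap only by a margin lost in rounding (−0.90, SE 0.38, unadjusted p = 0.0439, adjusted p = 0.0858). That difference was −1.40 without 3mo IOP 2, −0.50 without 18mo IOP 2 and −0.40 without 3mo IOP 1. After repeated IOP it measured 0.681 and 0.726 against 1.083 and 1.68, also without overlap (−0.63, SE 0.24, unadjusted p = 0.0229, adjusted p = 0.189). Neither gene was called in any comparison. Phgdh has a processed pseudogene, and reads shared with it would be uncertain.

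In response to a single elevation, no member was called at either age by limma or by voom on the recovered reads. At 3 months 8 of 10 differences were positive. Most genes of such lengths were positive too: the lower quartile of all genes was 0.043 to 0.092 in the length bins below 3000 bases. The 5 genes Atf4, Atf5, Trib3, Chac1 and Sesn2 lay above their controls without overlap, against 28.6% of all genes. No member lay below without overlap, against 3.95%. The calls over the whole table were 0.568% higher and 0.00728% lower, and at an unadjusted p of at most 0.05 the only member was Atf5, 1 of 10 against 8.51% of all genes. Marker sums moved in the same libraries: retinal pigment epithelium 107 to 232 FPKM in 3mo IOP against 29.0 to 43.2 in 3mo control, microglia and leukocytes 10.2 to 11.03 against 5.36 to 6.93, lens 10.5 to 20.04 against 7.36 to 10.4 and endothelium 10.1 to 12.5 against 7.17 to 9.83. Their part was not tested. The median of the 10 genes was 0.28, where that of all genes was 0.13. It moved to 0.0082 with the length trend removed (all genes −0.045), and to −0.051 with length and GC trends removed (all genes −0.044).

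At 18 months 8 of 10 differences were again positive. In the length bins below 3000 bases, all genes had medians of 0.10 to 0.21 and lower quartiles of −0.043 to −0.00052. Atf5, Ddit3, Chac1 and Gdf15 lay above their controls without overlap, against 36.5% of all genes. None lay below, against 9.89%. The background of calls was 0.117% higher and 0.00728% lower. At an unadjusted p of at most 0.05 there were 2 members, Gdf15 and Atf5, against 9.45% of all genes. Gdf15 was tested through the 18mo IOP libraries, the group in which it is high, so its place in these counts adds nothing to a reading of them. The median of the 10 genes was 0.28 and that of all genes 0.089. The 2 IOP comparisons have separate controls, and no interaction was called for any of the 13731 genes (0%), with 218 at an unadjusted p of at most 0.05, Gdf15 among them as the only member and under the same limit.

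**Figure D3:**
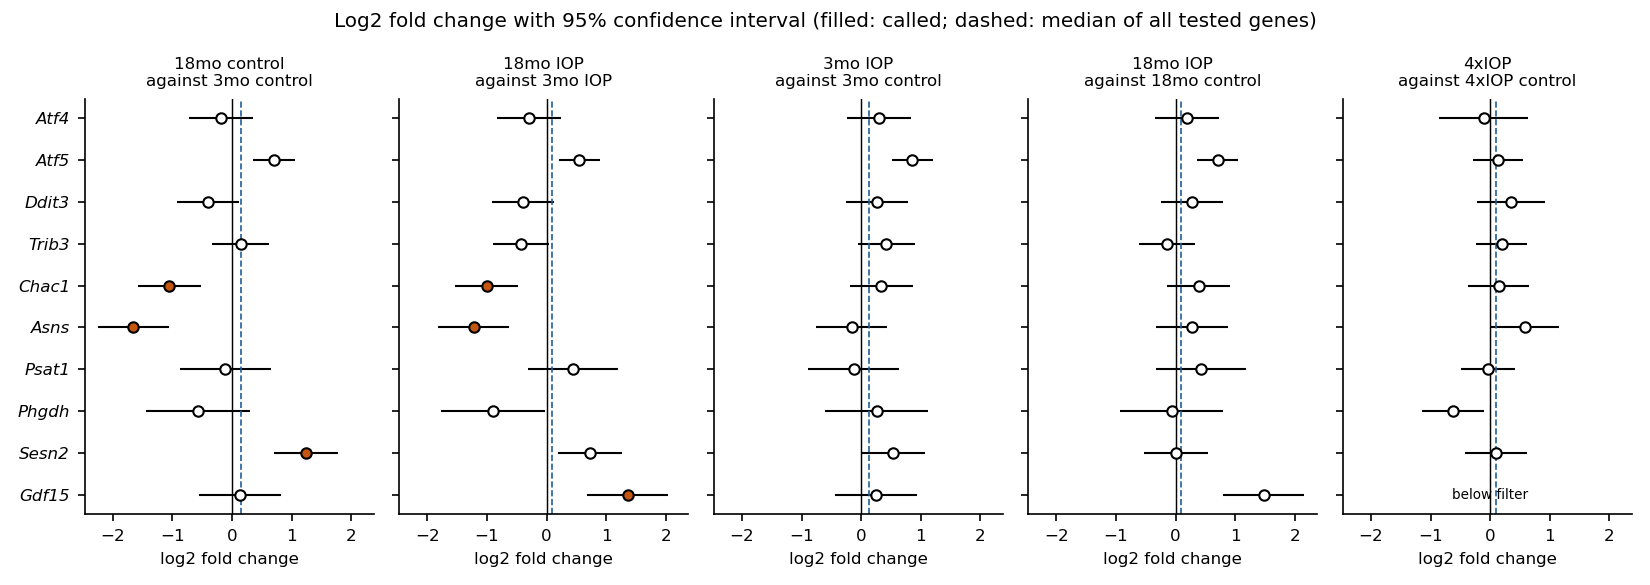
Log2 fold change (horizontal axis) of the 10 genes in 5 comparisons, with 95% confidence intervals; filled circles are called genes, and the dashed line is the median of all tested genes. Asns and Chac1 are called in both comparisons of age, Sesn2 in control eyes and Gdf15 in IOP eyes, and no circle is filled in the 3 comparisons of IOP with control.

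Gdf15 was the lowest member in 5 of the 6 groups and exceeded 1 FPKM in the 18mo IOP libraries (NM_001330687, chr8:70629393-70632456, minus strand, 3 exons). It measured 0.07 and 0.335 FPKM for 3mo control, 0.401 and 0.244 for 3mo IOP, 0.298 and 0.217 in 18mo control, and 1.23 and 2.07 in 18mo IOP. On reads, that was 4 and 22, 30 and 14, 18 and 14, and 93 and 169. Both 18mo IOP libraries lay above the other 6, and their exact Poisson 95% intervals, 0.993 to 1.51 and 1.77 to 2.40 FPKM, lay above the highest of the other 6 upper bounds, 0.573 FPKM in 3mo IOP 1. These intervals cover counting error only. The 18mo IOP mean was 6.40 times the 18mo control mean and 5.11 times the 3mo IOP mean.

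Against 18mo control Gdf15 was higher by 1.48 (SE 0.30, 95% confidence interval 0.79 to 2.16), rank 130 of 13731 from the highest, with an unadjusted p of 0.00104 and an adjusted p of 0.115. It was thus not called. Over the alternatives planned, its adjusted p ranged from 0.0987 to 0.334, and without any single library from 0.0572 to 0.622. At 3 months the difference was 0.25 (SE 0.30, adjusted p = 0.983). The interaction was 1.23 (SE 0.42, 95% confidence interval 0.26 to 2.20, unadjusted p = 0.0187, adjusted p = 1), so the larger response at 18 months did not pass. Against 3mo IOP, Gdf15 was called: it was higher by 1.36 (SE 0.30, adjusted p = 0.0117). That call was lost without 3mo IOP 1 (1.502, adjusted p = 0.0576) or 3mo IOP 2 (1.23, adjusted p = 0.073), and with a pseudocount of 1 the difference fell just below the fold threshold (0.99, adjusted p = 0.00998). Gdf15 passed the filter through the 18mo IOP libraries, since its mean over the other 6 was 0.261 FPKM against a minimum of 0.5. In control eyes age gave 0.13 (SE 0.30, adjusted p = 0.734).

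Beside the Gdf15 values, the 5 endothelial markers summed to 69.5 and 70.8 FPKM in 18mo IOP 1 and 2 against 50.2 and 49.7 in 18mo control. The 6 microglia and leukocyte markers summed to 41.8 in 18mo IOP 1 and 14.8 in 18mo IOP 2, the library with more Gdf15, against 15.2 to 17.8, and the 6 lens markers to 3.49 to 11.3 against 1.68 to 2.58. The 5 blood markers were lower, at 44.3 to 54.3 against 166 to 426, and so were the 6 rod markers, at 11425 to 13537 against 15063 to 16864. Their part in the Gdf15 values was not tested. Gfral, which encodes the GDF15 receptor, was listed at 0 in all 12 libraries, and Ret, its co-receptor, ranged from 0.432 to 3.74 FPKM.

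**Figure D4:**
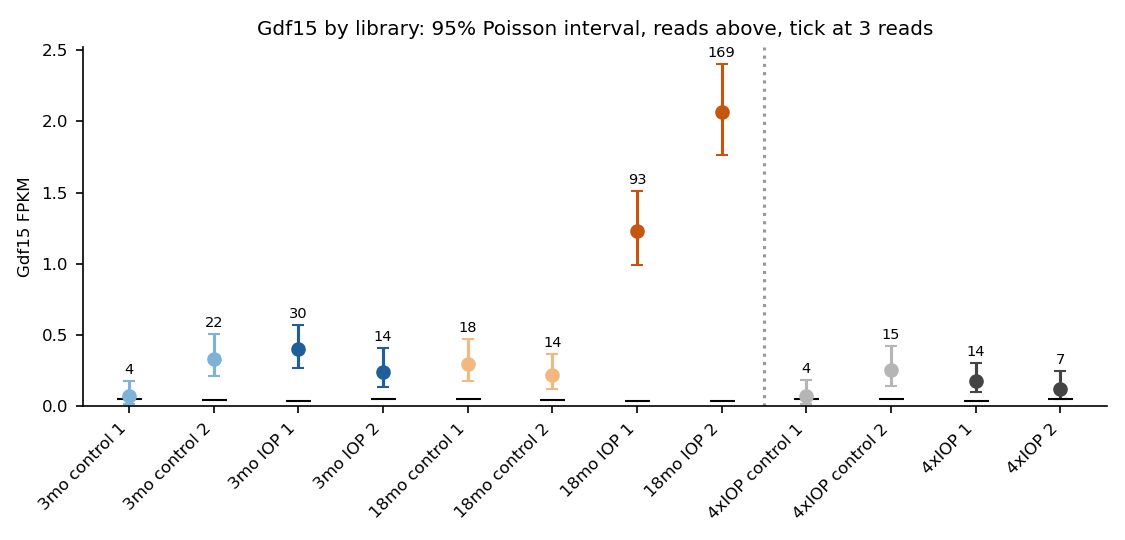
Gdf15 FPKM (vertical axis) in each library, with exact Poisson 95% intervals as bars, the number of reads above each, and a tick at the FPKM that 3 reads would give; the dotted line divides the 2 tables. The 18mo IOP libraries hold 93 and 169 reads, and no other library holds more than 30.

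After repeated IOP, Gdf15 measured 0.181 and 0.12 FPKM (14 and 7 reads) against 0.073 and 0.258 (4 and 15 reads) in 4xIOP control. The groups overlapped, and the mean of 0.158 FPKM left it below the filter, so that 9 members were tested. Without the filter its difference was −0.020 (SE 0.15, adjusted p = 0.977). None of the 9 was called by limma or voom, against 5.45% of 13718 genes higher and 0.693% lower. Asns and Phgdh, 2 of 9, had an unadjusted p of at most 0.05, against 15.4% of all genes. Asns measured 14.9 and 21.98 FPKM against 13.8 and 10.2, without overlap (0.59, SE 0.26, adjusted p = 0.297). Its difference was 0.38 without 4xIOP control 2 and 0.32 without 4xIOP 2, and that of Phgdh was −0.40 without 4xIOP control 2. Ddit3, Trib3 and Asns lay above their controls without overlap and Phgdh below, against 27.7% and 12.7% of all genes. Their median was 0.13 and that of all genes 0.096. Both turned sign under quantile normalization (−0.068 and −0.057), with the length trend removed (−0.095 and −0.075) and with length and GC trends removed (−0.038 and −0.078). Of the markers, those of microglia and leukocytes summed to 32.2 to 37.6 FPKM against 2.99 to 3.19, of lens to 24.8 to 46.0 against 0.544 to 2.69, of rods to 4444 to 6701 against 9055 to 9456, of endothelium to 48.7 to 54.0 against 21.2 to 27.8, of Müller glia to 525 to 619 against 812 to 864, and of pigment epithelium to 0.561 to 1.14 against 4.19 to 7.13. Their part was not tested.

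In IOP eyes, age gave 1 member higher (Gdf15) and 2 lower (Asns, Chac1) among 10, against 10.2% and 11.6% of all genes. Gdf15 was tested through the 18mo IOP libraries and Chac1 through the 3-month libraries, where each is high. Neither call therefore adds to a reading of that count. Marker sums at 18 against 3 months in these eyes were 31.5 to 86.7 against 446 to 513 FPKM for ganglion cells, 0.505 to 0.894 against 107 to 232 for pigment epithelium, 69.5 to 70.8 against 10.1 to 12.5 for endothelium, 1303 to 1568 against 478 to 570 for Müller glia, 14.8 to 41.8 against 10.2 to 11.03 for microglia and leukocytes and 11425 to 13537 against 20330 to 21085 for rods. Their part was not tested. By adjusted p alone there were 3 higher and 2 lower, against 23% and 19.6%. Atf5, Sesn2 and Gdf15 lay higher without overlap, against 43.2%, and Ddit3, Trib3, Chac1, Asns and Phgdh lower, against 34.5%. Phgdh did so only by a margin lost in rounding, and the limit on Gdf15 and Chac1 holds for these counts too. The members' median was −0.34, where that of all genes was 0.093, and it turned to 0.27 with the length trend removed (all genes 0.019).

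The upstream machinery was described from a list of 15 eIF2 kinases, phosphatase subunits and eIF2 or eIF2B subunits. With age in control eyes 1 was called higher and 2 lower, near the 11.6% of all genes called in each direction, and the list median was −0.0033 against 0.16 for all genes. Ppp1r15a, the stress-induced phosphatase subunit GADD34 that reverses eIF2 phosphorylation, rose from 4.37 and 3.53 FPKM to 21.9 and 15.2 (2.08, SE 0.34, adjusted p = 0.00584), and the call was kept under all 14 alternatives and without each of the 4 libraries. Eif2s2 and Eif2s1, subunits of eIF2, fell by 1.40 (adjusted p = 0.00564) and 1.26 (adjusted p = 0.00923), calls that were lost with length and GC trends removed, that of Eif2s1 also without 3mo control 2 or 18mo control 2. In 18mo IOP Ppp1r15a stood at 27.5 and 57.2 FPKM, above its controls without overlap but not called (1.10, adjusted p = 0.264). Against 3mo IOP, at 5.75 and 4.39, it was called (2.86, adjusted p = 0.00281), while Eif2s2 (−1.29) and Eif2s1 (−1.14) were again lower, calls lost with length and GC trends removed and without 3mo IOP 2, and for Eif2s1 also without 3mo IOP 1 or 18mo IOP 1. The calls with age in IOP eyes were 1 higher and 2 lower of 15, against 10.2% and 11.6% of all genes. At 3 months Eif2ak2, the double-stranded RNA kinase PKR, which interferon induces, had the smallest p for IOP (1.22, adjusted p = 0.154). After repeated IOP the list had 1 call, higher, against 5.45% of all genes: Eif2ak2 rose from 0.572 and 0.669 FPKM to 5.07 and 3.77 (2.12, SE 0.21, adjusted p = 2.35e-05). The marker sums given above for repeated IOP moved in the same libraries, and their part was not tested.

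Among 19 other targets of ATF4 and CHOP, with 17 tested in the single-IOP table, age in controls gave 4 called higher and 1 lower, against 11.6% of all genes in each direction. Cebpb rose from 0.986 and 0.719 FPKM to 8.85 and 5.25 (2.45, adjusted p = 0.00489), and Atf3, a stress-induced repressor of the same family, from 2.25 and 3.28 to 14.5 and 11.9 (2.08, adjusted p = 0.00569). Both were called under all 14 alternatives and without each library. Cebpd rose by 1.80 (adjusted p = 0.0151), a call lost without 3mo control 1 or 18mo control 1, and Bcl2l11 and Map1lc3b, named here to complete the count, differed by 1.03 (adjusted p = 0.0234) and −1.09 (adjusted p = 0.02). The list median was 0.25, against 0.16 for all genes. In IOP eyes 2 were called higher with age and 0 lower, against 10.2% and 11.6%: Cebpb (2.63, adjusted p = 0.00332) and Atf3 (2.25, adjusted p = 0.00511), both under all 14 alternatives and without each library.

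For a single IOP against control, the only calls among the lists were in this list, 1 of 17 at each age, against 0.568% of all genes higher at 3 months and 0.117% at 18 months. At 3 months Cebpd rose from 2.43 and 4.66 FPKM to 42.5 and 36.0 (3.35, SE 0.45, adjusted p = 0.0322). At 18 months Nupr1, a stress-induced chromatin protein, rose from 22.9 and 21.5 to 98.0 and 149.8 FPKM (2.42, SE 0.30, adjusted p = 0.0443). The marker sums given above for 3mo IOP and 18mo IOP moved in the same libraries. Each call was lost under some alternatives: Cebpd under 6 of 14, and without 3mo control 1 or either 3mo IOP library, and Nupr1 under 8 of 14, and without either 18mo control library or 18mo IOP 2. At 3 months Nupr1 stood at 117 and 77.8 against 24.4 and 37.5 FPKM (1.64, adjusted p = 0.07). Atf3 in IOP eyes measured 9.98 and 7.19 FPKM at 3 months (1.48, adjusted p = 0.132) and 29.7 and 59.9 at 18 months (1.64, adjusted p = 0.117), in both without overlap. In the 8 lists beside the members, no interaction was called. Among them the smallest unadjusted p was that of Hspa5 (0.0429), followed by Slc38a2 (0.0808), Plk2 (0.0878), Cebpd (0.0905), Trib1 (0.0956), Ppp1r15a (0.146), Eprs (0.153) and Dele1 (0.168), the smallest of each list.

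After repeated IOP 5 of the 15 tested targets were called higher and 0 lower, against 5.45% and 0.693% of all genes, and the list median was 0.26 against 0.096 for all genes. Cebpd rose from 0.858 and 1.42 FPKM to 22.8 and 28.0 (3.99, adjusted p = 2.19e-07), Nupr1 from 8.42 and 8.45 to 34.4 and 61.5 (2.38, adjusted p = 0.00011) and Atf3 from 3.78 and 2.71 to 15.3 and 19.9 (2.27, adjusted p = 2.42e-05). All 3 were called under all 13 alternatives and without each library. Cebpb (1.49, adjusted p = 0.000999) and Eif4ebp1 (1.15, adjusted p = 0.0121), named to complete the count, were the others. Cebpb passed the filter through the 4xIOP libraries, since its control mean was 0.373 FPKM. Its call thus adds nothing to a reading of the count. The list was chosen with earlier results of these data known, so its count is a description only. The microglia, lens and rod marker sums given above for repeated IOP moved with the values of these 5 genes too.

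**Figure D5:**
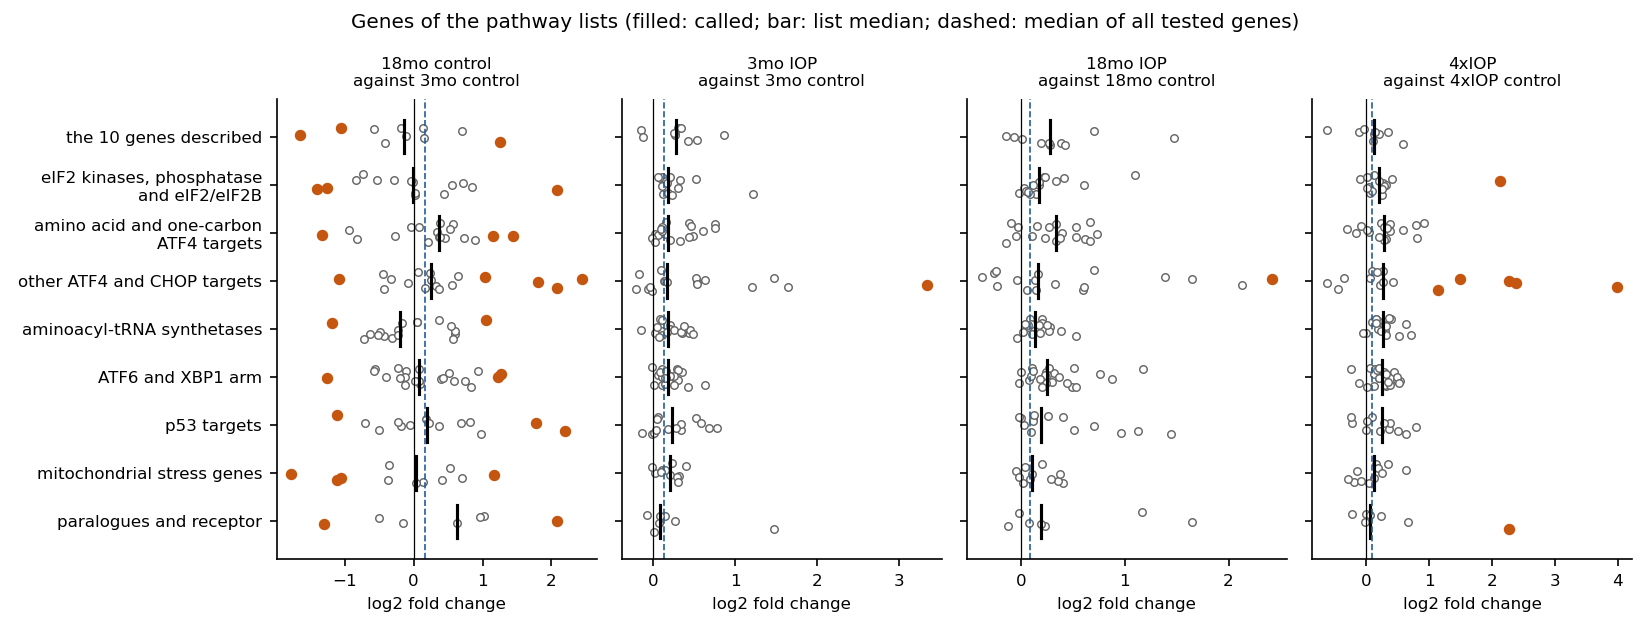
Log2 fold change (horizontal axis; the range differs between panels) of the genes of the 9 lists in 4 comparisons; filled circles are called, short bars are list medians and the dashed line is the median of all tested genes. Calls in comparisons of IOP with control lie to the right of 0, with Cebpd farthest at 3.35 and 3.99 in 3mo IOP and 4xIOP.

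Of 18 tested amino acid and one-carbon genes, 2 were called higher and 1 lower with age in controls, near the 11.6% of all genes called in each direction. The list median was 0.37, against 0.16 for all genes. Slc7a5, the large neutral amino acid transporter, rose from 3.93 and 1.99 FPKM to 7.90 and 9.30 (1.45, adjusted p = 0.00702), Slc1a5 rose by 1.15 (adjusted p = 0.00804), and Psph, the last enzyme of serine synthesis, fell from 13.6 and 26.4 to 7.38 and 7.02 (−1.34, adjusted p = 0.00958). Slc7a5 was lost with length and GC trends removed and without 18mo control 2, Slc1a5 under 4 of 14 alternatives, and Slc1a5 and Psph without each of 3mo control 2, 18mo control 1 and 18mo control 2. In IOP eyes Cbs, Slc7a5 and Psph were called with age at 1.18, 1.12 and −1.11, 2 higher and 1 lower against 10.2% and 11.6% of all genes. Cbs passed the filter through the 18mo IOP libraries, since its mean over the other 6 was 0.468 FPKM. Its call thus adds nothing to a reading of that count. Under the alternatives Cbs was lost in 2 of 13, Slc7a5 in 3 of 14 and Psph in 2 of 14. Cbs and Slc7a5 were lost without 3mo IOP 1 or 3mo IOP 2, Slc7a5 also without 18mo IOP 2, and Psph without each of the 4 libraries. A single IOP gave no call. The smallest p belonged to the cystine transporter Slc7a11 at 3 months, from 0.463 and 0.52 to 1.30 and 1.05 FPKM (0.75, adjusted p = 0.237), and to Slc3a2, its partner chain, at 18 months, from 41.7 and 39.3 to 57.8 and 72.1 (0.67, adjusted p = 0.218). After repeated IOP 3 of 17 genes, all higher, passed by adjusted p alone, against 6.85% of all genes higher and 1.1% lower, and none by the fold as well. Mthfd2, the mitochondrial folate enzyme, had the smallest p, from 2.99 and 2.44 to 4.56 and 5.59 FPKM (0.79, adjusted p = 0.0276).

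Of 18 aminoacyl-tRNA synthetases, with a median of −0.20 against 0.16 for all genes, Vars was called higher (1.04, adjusted p = 0.016) and Dars lower (−1.19, adjusted p = 0.00564) with age in controls, 1 each way against 11.6% of all genes. Vars was lost under 5 of 14 alternatives and without each of 3mo control 2, 18mo control 1 and 18mo control 2, and Dars with length and GC trends removed and without 3mo control 2. Dars was lower with age in IOP eyes as well (−1.04, adjusted p = 0.00762), a call lost under 2 of 14 alternatives and without 3mo IOP 1, 3mo IOP 2 or 18mo IOP 1. The calls with age in IOP eyes were 0 higher and 1 lower of 18, against 10.2% and 11.6% of all genes. No synthetase was called in any comparison of IOP with control. Yars had the smallest p at 3 months (0.49, adjusted p = 0.325), Gars at 18 months (0.53, adjusted p = 0.551) and after repeated IOP (0.71, adjusted p = 0.163).

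In the ATF6 and XBP1 arm of the unfolded protein response, 23 genes tested, Ern1 (1.26, adjusted p = 0.0133) and Syvn1 (1.23, adjusted p = 0.0073) were higher and Manf (−1.26, adjusted p = 0.0231) lower with age in controls, 2 higher and 1 lower against 11.6% of all genes each way and a median of 0.075 against 0.16 for all genes. Ern1 was lost under 2 of 14 alternatives, Manf under 4 and Syvn1 under 1, each with length and GC trends removed among them. Ern1 and Manf were also lost without each of 3mo control 2, 18mo control 1 and 18mo control 2, and Syvn1 without 3mo control 2. Ern1 was called in IOP eyes too (1.15, adjusted p = 0.0198), but not under 3 of 14 alternatives (quantile normalization, length trend removed, length and GC trends removed), nor without 3mo IOP 1, 3mo IOP 2 or 18mo IOP 2. The calls with age in IOP eyes were 1 higher and 0 lower of 23, against 10.2% and 11.6% of all genes. Hspa5, the chaperone BiP, measured 91.4 and 86.7 FPKM in 18mo control and 143 and 285 in 18mo IOP, without overlap (1.18, SE 0.31, adjusted p = 0.2), and 86.0 and 107 against 111 and 96.9 at 3 months. The interaction of Hspa5 was 1.07 (unadjusted p = 0.0429, adjusted p = 1). Sdf2l1 had the smallest p of the list at 3 months (0.64, adjusted p = 0.765) and after repeated IOP (0.54, adjusted p = 0.171).

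Among 14 tested p53 targets 2 were called higher and 1 lower with age in controls, against 11.6% of all genes each way, with a median of 0.20 against 0.16 for all genes. The cell cycle inhibitor Cdkn1a rose with age in controls from 0.707 and 0.571 FPKM to 5.02 and 4.48 (2.21, adjusted p = 0.00484), and Pmaip1, which encodes NOXA, from 0.055 and 0.063 to 1.37 and 1.45 (1.77, adjusted p = 0.00484), its 3-month values lying under the filter minimum of 0.5. Both were called under every alternative that tested them and without each library. Pmaip1 was tested through the 18-month libraries, in which it is high, so its calls with age add nothing to a reading of the counts of this list. Ccng1 fell by 1.12 (adjusted p = 0.00574), and this was lost under quantile normalization and with length and GC trends removed. In IOP eyes Cdkn1a (2.97), Pmaip1 (2.14) and Plk2 (1.66) were higher with age, with adjusted p of 0.00178, 0.0026 and 0.008, and Plk2 was lost without 3mo IOP 2. These calls in IOP eyes were 3 higher and 0 lower of 14, against 10.2% and 11.6% of all genes. IOP at 18 months brought Cdkn1a to 10.1 and 18.7 FPKM, without overlap and without a call (1.45, adjusted p = 0.115). After repeated IOP it measured 1.04 and 0.719 against 0.264 and 0.322 (0.79, adjusted p = 0.104), having passed the filter through the 4xIOP libraries, and at 3 months Phlda3 had the smallest p (0.78, adjusted p = 0.37).

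Of 11 mitochondrial stress genes tested, Lonp1 was higher (1.17, adjusted p = 0.00668), and Hspe1 (−1.78, adjusted p = 0.0134), Yme1l1 (−1.12, adjusted p = 0.0055) and Clpp (−1.06, adjusted p = 0.0171), the last named to complete the count, were lower with age in controls, 1 higher and 3 lower against 11.6% of all genes each way, with a median of 0.037 against 0.16 for all genes. Lonp1, Hspe1 and Yme1l1 were each lost under 2 of 14 alternatives. Lonp1 was lost without 3mo control 2 or 18mo control 2, Hspe1 without either 18mo control library, and Yme1l1 without 3mo control 2. Hspe1 and Clpp were lower with age in IOP eyes (−1.69 and −1.04), and these calls were lost under 2 and 4 of 14 alternatives and without each of the 4 libraries. The calls with age in IOP eyes were 0 higher and 2 lower of 11, against 10.2% and 11.6% of all genes. No gene of this list was called for IOP, with the smallest p at Dele1 at 3 months (0.30, adjusted p = 0.693), Clpx at 18 months (0.35, adjusted p = 0.541) and Afg3l2 after repeated IOP (0.64, adjusted p = 0.124).

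Of 7 paralogues and receptor genes tested, 1 was called higher and 1 lower with age in controls, against 11.6% of all genes each way, and 3 higher and 1 lower in IOP eyes, against 10.2% and 11.6%. Their median was 0.63 in controls, where that of all genes was 0.16, and 0.62 in IOP eyes, where that of all genes was 0.093. Chac2, which degrades glutathione as Chac1 does, fell from 11.4 and 18.7 FPKM to 6.26 and 5.05 with age in controls (−1.30, adjusted p = 0.00739), but with the length trend removed or length and GC trends removed it was not called, and its difference shrank to as little as −0.041. It was also lost without 3mo control 2 or 18mo control 2. In IOP eyes it differed by −1.18 (adjusted p = 0.0102). Sesn3 was higher with age in IOP eyes (1.27, adjusted p = 0.00626) and below the fold threshold in controls (0.96, adjusted p = 0.0109). Sesn1, at 32.3 and 35.5 FPKM in 3mo control and 26.1 and 21.6 in 18mo control, differed by −0.50 (adjusted p = 0.0402), under the fold threshold. Trib1 was higher with age in IOP eyes, from 5.58 and 3.91 to 13.4 and 32.4 FPKM (2.05, adjusted p = 0.00818), a call lost without 3mo IOP 2, as was that of Sesn3. Trib2 differed by 0.62 (adjusted p = 0.045) in the same comparison.

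The genes with the most similar profile over the 8 libraries of the single-IOP table were found by the root mean square difference of log2(FPKM + 0.5) after centring, a measure the 8 libraries share with their depth and length bias. For Gdf15 they were Sphk1 (0.21), Klf10 (0.21), Gstm1 (0.23), Hspa5 (0.23) and Slc14a1 (0.24), where the profile of Gdf15 itself varied by 0.68. Klf10 measured 2.52 and 2.51 FPKM in 18mo control and 4.72 and 8.71 in 18mo IOP, so that 18mo IOP 2 was the highest library, as it was for Gdf15. For Atf5 they were Myo1d (0.081), Anxa6 (0.087), Pdzrn3 (0.090), Gnb2 (0.093) and Flot2 (0.12), against 0.50 for Atf5. Anxa6 measured 4.81 and 4.57 FPKM for 3mo control, 9.27 and 7.72 for 3mo IOP, 6.85 and 7.52 in 18mo control and 11.1 and 13.3 in 18mo IOP. For Ddit3 they were Denr (0.041), Ppp4c (0.059), Wdr70 (0.061), Tra2b (0.064) and Csnk2b (0.067), against 0.30. For Phgdh they were Gstt2 (0.13), Gm17597 (0.17), Lhx1os (0.19), Dancr (0.19) and Pstpip2 (0.20), against 0.50. No other member appeared among these 20 genes.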

How the data were processed

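Whole-retina poly(A) RNA libraries (strand-specific TruSeq) were sequenced by the study. Per the labels and methods the authors aligned reads with STAR 2.7.8a to mm10 and counted exons of condensed RefSeq genes by strand with HOMER, which wrote the deposited FPKM tables, 1 for single and 1 for repeated IOP. The submitters' processing notes also name DESeq 1.24.0 and DESeq2, whose results were not used here. The deposited transcript lengths (another column, in bases) served to recover whole reads from FPKM. Values were whole within 0.02 reads beside rounding for at least 99.95% of those checked. Exon reads made up 44.2% to 71.5% of mapped reads, and 3 reads, the floor, equal 0.0252 to 0.0377 FPKM for a transcript of 2000 bases.

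With R 4.3.3 and limma 3.58.1, log2(FPKM + 0.5) was fitted for the 13731 and 13718 genes whose mean across the libraries of a table reached 0.5 FPKM, with a trend in the prior variance and Benjamini-Hochberg adjustment over all genes. The single-IOP table was fitted as 4 groups with a shared spread and the repeated-IOP table alone. No test crosses the tables. With 2 libraries a group, an exact permutation test cannot go below p = 0.333, so none was used. The fit was checked on simulated data. The members and lists were chosen with earlier results of these data known. Named genes are every member, in each list up to 3 called genes of the largest change or else the smallest p, the 5 genes most alike to 4 members, and paralogues. Lists were described by counts and medians beside all tested genes. Promoter sequences and exon counts came from RefSeq (GRCm38.p6) and GENCODE M21, with gene positions from the deposited tables. Alternatives were pseudocounts of 0.1 and 1, no filter and a minimum of 2 FPKM, median-of-ratios and quantile scaling, a fit without trend, a replicate block, only the groups compared, adjusted p alone, removal of trends with length or with length and GC content (splines with 5 degrees of freedom), voom on recovered reads, and each library left out.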

Additional observations from a re-analysis of the deposited data

How the results depend on the processing

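Of 1056 values of members recomputed, 964 kept their direction and side of the threshold, 19 lost a call, 5 gained one and 68 turned sign; where no cause is named it was not tested. With 2 libraries a group, and 4 to 169 reads of Gdf15 a library, small differences were not detectable at this depth.

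For age in control eyes, 1 member was called lower with a pseudocount of 1, with a mean of at least 2 FPKM (which leaves fewer genes) and with the length trend removed. By adjusted p alone 2 were called higher, and with length and GC trends removed 0. The members' median was 0.12 with the length trend removed. Signs turned under quantile normalization for Atf4 (0.41), Trib3 (−0.057) and Gdf15 (−0.000895). They also turned with the length trend removed for Atf4 (0.17) and Ddit3 (0.40), and with length and GC trends removed for Ddit3 (0.16) and Trib3 (−0.34). For age in IOP eyes, 0 were called higher and 1 lower with a pseudocount of 1 and with a mean of at least 2 FPKM, 3 higher by adjusted p alone, and 1 lower with the length trend removed. The median was 0.13 under quantile normalization, 0.27 with the length trend removed and 0.11 with length and GC trends removed. Atf4 turned to 0.30 under quantile normalization and 0.14 with the length trend removed, and Ddit3 to 0.49 and, with GC content as well, 0.30.

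For IOP at 3 months the median was 0.0082 with the length trend removed and −0.051 with length and GC trends removed. Gdf15 turned to −0.10 under quantile normalization, −0.039 with the length trend removed and −0.10 with GC content as well. Ddit3 turned to −0.043 and −0.096 in those last settings, and with length and GC trends removed Atf4 turned to −0.033, Chac1 to −0.0071 and Phgdh to −0.069. For IOP at 18 months Sesn2 turned to −0.094 with median-of-ratios size factors, −0.14 under quantile normalization, −0.13 with the length trend removed and −0.11 with length and GC trends removed, and Atf4 to −0.016 and −0.030 in the last settings. In the interaction Chac1 turned to −0.017 with a pseudocount of 1, and Atf4 and Atf5 to 0.0030 and 0.040 with length and GC trends removed. After repeated IOP the median was −0.095 with the length trend removed, −0.068 under quantile normalization and −0.038 with length and GC trends removed. Under quantile normalization Atf5 (−0.035), Trib3 (−0.014), Chac1 (−0.14) and Sesn2 (−0.068) turned, with the length trend removed Atf5 (−0.095), Trib3 (−5.51e-05), Chac1 (−0.100) and Sesn2 (−0.072), and with length and GC trends removed Atf5 (−0.038), Chac1 (−0.064) and Sesn2 (−0.0087).

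Leaving out each library, the members called ranged from 0 to 1 higher and 1 to 2 lower for age in control eyes, and from 0 to 1 higher and 0 to 2 lower for age in IOP eyes. Values that turned sign were, for age in control eyes, Gdf15 (−0.14 to 0.41), Trib3 (−0.019 to 0.31) and Psat1 (−0.49 to 0.27). For IOP at 3 months they were Ddit3 (−0.010 to 0.54), Gdf15 (−0.028 to 0.52), Asns (−0.54 to 0.22), Psat1 (−0.51 to 0.25) and Phgdh (−0.24 to 0.76). For IOP at 18 months they were Sesn2 (−0.054 to 0.077), Phgdh (−0.47 to 0.33) and Atf4 (−0.037 to 0.41). In the interaction they were Chac1 (−0.12 to 0.22), Ddit3 (−0.26 to 0.29), Atf4 (−0.33 to 0.12) and Phgdh (−0.82 to 0.17), and after repeated IOP Psat1 (−0.15 to 0.082), Chac1 (−0.071 to 0.36), Atf4 (−0.41 to 0.20) and Sesn2 (−0.26 to 0.46).

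Counts over the whole table moved by more than 1.5 times in these cases. For age in control eyes 3185 calls became 6297 by adjusted p alone and 1390 with length and GC trends removed, and 1176 to 4717 without a library; for age in IOP eyes 3000 became 5846 and 1510, and 722 to 2811. For IOP at 3 months 79 became 9 without the filter, 10 with median-of-ratios size factors, 14 under quantile normalization, 22 with length and GC trends removed, 3 with voom, and 0 to 257 without a library. For IOP at 18 months 17 became 0 with a pseudocount of 0.1, median-of-ratios size factors, only the groups compared, length and GC trends removed or voom, 1 without the filter, 9 with a mean of at least 2 FPKM, 4 under quantile normalization, and 0 to 144 without a library. The interaction gave 2 without the filter and at most 2 without a library, and repeated IOP 475 of 843 with a mean of at least 2 FPKM. There, 88.7% of calls were higher, against 77.9% under quantile normalization, 79% with the length trend removed and 78.4% with length and GC trends removed.

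Same-numbered eyes did not deviate together (r = −0.28 at 3 months, −0.53 at 18 months and −0.29 after repeated IOP). With 2 libraries a group, each r rests on 1 difference per group and cannot show which libraries are pairs. The labels do not say either, so the numbers were not taken as pairs. With the replicate block the whole-table calls were 2905 for age in control eyes, 20 for IOP at 3 months, 0 for IOP at 18 months, 2626 for age in IOP eyes, 0 for the interaction and 864 after repeated IOP. With crossed numbers as the block, chosen after seeing the data, they were 3296, 312, 306, 3143, 0 and 894, and 1 member, Gdf15, was called higher for IOP at 18 months.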
